A study of Bos taurus with 3 samples.

Results

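The thrombospondins are a small gene family, and 4 of its members, THBS1, THBS2, THBS3 and THBS4, were picked by their symbol in the gene descriptions of the deposited tables. All 4 had tags in all 3 libraries, which together listed 9154 genes. The libraries were made from mammary gland biopsies of Holstein cows, 18 in all and all in the second parity. They stood for 35 days before parturition (−35 d, the dry period), 7 days before parturition (−7 d, stage I of lactogenesis) and 3 days after parturition (+3 d, stage II of lactogenesis). Tissue of 6 cows was pooled before RNA isolation at each time point, so each time point was 1 library, with no replicate, and different cows were sampled at each time. The labels name no treatment or genetic change.

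Thrombospondins are secreted glycoproteins that bind calcium and sit in the extracellular matrix, where they connect matrix fibres, cell surface receptors, proteases and growth factors. THBS1 and THBS2 assemble as trimers and carry type 1 repeats, through which they bind the receptor CD36 and restrain the growth of blood vessels, and THBS1 can also release active TGF-beta from its latent complex. THBS3 and THBS4 lack the type 1 repeats and assemble as pentamers, as does the related cartilage protein COMP. In the mammary gland the matrix around ducts, alveoli and vessels is rebuilt as the gland passes from the dry period to milk secretion.

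Expression was measured by digital gene expression, in which a 21-base tag next to a CATG site of each transcript is sequenced and counted. Clean tags numbered 5914422, 5593237 and 5845821 in the libraries of −35 d, −7 d and +3 d, and values are given in this order throughout. Levels are given as tags and as TPM, which scales the tags of a gene to the clean tag total of its library, so that 1 tag was worth 0.169, 0.179 and 0.171 TPM. This TPM is not scaled to transcript length and depends on the tag sites of a gene, so each gene was compared with itself across libraries. The difference of the −7 d from the −35 d library is called stage I below, that of the +3 d from the −7 d library stage II, and that of the +3 d from the −35 d library the whole interval. A difference was called where the false discovery rate (FDR) of the Audic-Claverie test, adjusted over all genes, was at most 0.001 and the fold difference at least 2. With 1 library per time point this test compares the libraries and not the time points, and all intervals below are 95% intervals that cover counting error only. A count of 0 means that the table of a library has no entry for a gene that another library lists. In bulk tissue, fewer cells of a type and less RNA per cell cannot be told apart.

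The median gene was itself lower in each later library, by log2 ratios of −0.19 in stage I, −0.31 in stage II and −0.53 over the whole interval, among 7570 genes that averaged 1 TPM or more. Scaling by the trimmed mean of M values (TMM) raised every log2 ratio by 0.19, 0.31 and 0.50, respectively. The median gene then lay at −0.0020, −0.0017 and −0.034. Scaling by the tags on listed genes went the other way and moved every log2 ratio by −0.030, −0.36 and −0.39. It left the median gene lower still, at −0.22, −0.67 and −0.92. Calls are given on the deposited scale. Stage I and II calls of named genes that moved with TMM scaling or scaling by the tags on listed genes are also given. Over the whole interval, calls under these scalings are given for the thrombospondins and SPARC only.

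**Figure D1:**
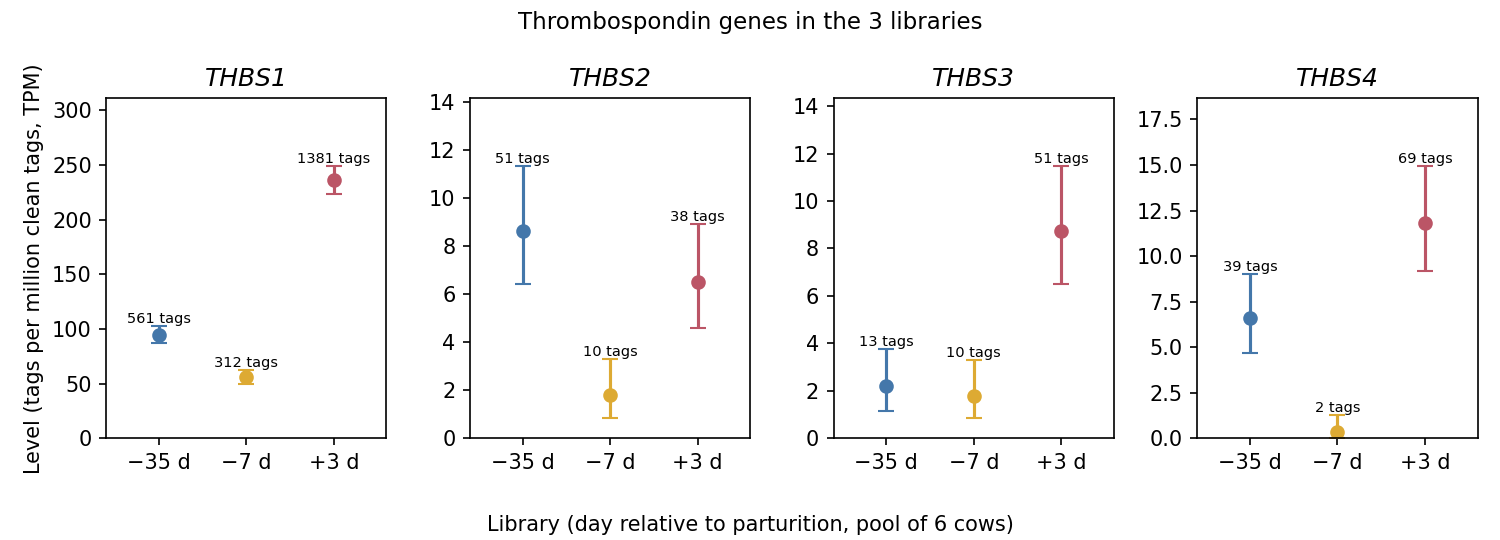
Levels of THBS1, THBS2, THBS3 and THBS4 in the 3 libraries, in TPM, with 1 point per library and exact Poisson 95% intervals as bars. Each gene had its lowest point at −7 d, though for THBS3 the −35 d and −7 d intervals overlapped, and THBS1, THBS3 and THBS4 had their highest point at +3 d.

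THBS1 (NM_174196.1), the trimeric member that restrains vessel growth and activates TGF-beta, held most thrombospondin tags in every library. It had 561, 312 and 1381 tags. These were 94.85 TPM (87.2 to 103), 55.78 TPM (49.8 to 62.3) and 236.24 TPM (224 to 249), and the 3 intervals did not overlap. THBS1 was upregulated in stage II, 4.24-fold (3.74 to 4.80), with an Audic-Claverie FDR of 3.20e-148. It was also 2.49-fold (2.26 to 2.75) higher at +3 d than at −35 d, with an Audic-Claverie FDR of 5.76e-80. This last log2 ratio, 1.32, became 0.93 and was not called when libraries were scaled by the tags on listed genes. In stage I it was 1.70-fold lower (1.48 to 1.96), with an Audic-Claverie FDR of 2.97e-13, which passed the FDR but not the 2-fold threshold.

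THBS2 (NM_176872.1), the other trimeric member with type 1 repeats, had 51, 10 and 38 tags. These were 8.62 TPM (6.42 to 11.3), 1.79 TPM (0.857 to 3.29) and 6.50 TPM (4.60 to 8.92). The −7 d library stood below the other 2, whose intervals overlapped. THBS2 was downregulated in stage I, 4.82-fold (2.42 to 10.7), with an Audic-Claverie FDR of 1.45e-06. It was upregulated in stage II, 3.64-fold (1.78 to 8.18), with an Audic-Claverie FDR of 0.000289. With scaling by the tags on listed genes this log2 ratio went from 1.86 to 1.51, with an Audic-Claverie FDR of 0.00408, and was not called. Between +3 d and −35 d its log2 ratio was −0.41 (−1.05 to 0.23), with an Audic-Claverie FDR of 0.270. The sign of this last ratio turned with the scaling, to 0.090 with TMM and 0.11 with DESeq2 size factors, so no direction is given for it.

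THBS3 (NM_001101839.1), a pentameric member known from bone and cartilage, had 13, 10 and 51 tags. These were 2.20 TPM (1.17 to 3.76), 1.79 TPM (0.857 to 3.29) and 8.72 TPM (6.50 to 11.5). The libraries before parturition overlapped, and the +3 d library stood above both. The log2 ratio in stage I was −0.30 (−1.65 to 1.01), with an Audic-Claverie FDR of 0.730, so a difference within that interval was not detectable at this depth. THBS3 was upregulated 4.88-fold (2.45 to 10.8) in stage II, with an Audic-Claverie FDR of 8.38e-07. Compared with −35 d it was 3.97-fold (2.13 to 7.96) higher at +3 d, with an Audic-Claverie FDR of 4.04e-06.

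THBS4 (NM_001034728.1), a pentameric member known from tendon, muscle and vessel walls, had 39, 2 and 69 tags. These were 6.59 TPM (4.69 to 9.01), 0.36 TPM (0.0433 to 1.29) and 11.8 TPM (9.18 to 14.9), and the 3 intervals did not overlap. At −7 d the gene was thus under the floor of 3 tags set here, 0.536 TPM in that library. Single-copy tags had been removed, and 2 was the smallest listed count in every library, so this count may be too low. The intervals of the folds do not allow for that. The −7 d level was 18.4-fold lower (4.77 to 158) than that at −35 d, with an Audic-Claverie FDR of 1.25e-08. It was 33.0-fold higher (8.80 to 278) at +3 d than at −7 d, with an Audic-Claverie FDR of 6.58e-17. Both intervals were wide because 1 of the counts compared was 2 tags. Over the whole interval THBS4 was 1.79-fold higher (1.19 to 2.72), with an Audic-Claverie FDR of 0.00763, which was not called. With TMM scaling the log2 ratio was 1.34 instead of 0.84, and it was called with an Audic-Claverie FDR of 1.21e-05. With scaling by the tags on listed genes it was 0.45, with an Audic-Claverie FDR of 0.159, and was not called.

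**Figure D2:**
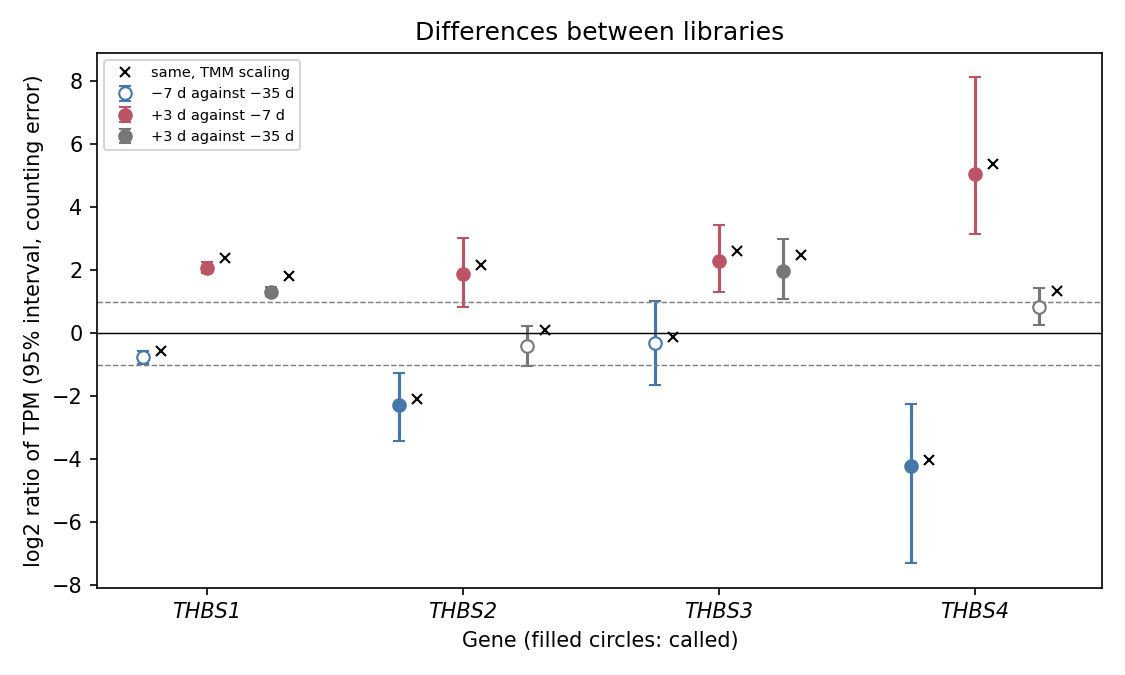
Log2 ratios of the 4 thrombospondins in the 3 comparisons between libraries, with 95% intervals from the counts (circles, filled where called) and after TMM scaling (crosses), and dashed lines at the 2-fold threshold. All 4 ratios were above 1 in stage II, and the ratio of THBS2 over the whole interval lay on either side of 0 depending on the scaling.

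In stage I, 2 of the 4 thrombospondins were called lower and none higher, where 9.07% of 8967 genes tested were called, 6.45% lower and 2.62% higher. In stage II all 4 were called higher, where 13.5% of 8784 genes were called, 3.12% higher and 10.4% lower. Over the whole interval THBS1 and THBS3 were called higher and none lower, where 18.6% of 8988 genes were called, 2.33% higher and 16.3% lower. The split of calls over all genes moved with the scaling. From 235 higher and 578 lower in stage I it went to 378 and 350 with TMM. For stage II the split went from 274 and 915 to 516 and 430, and for the whole interval from 209 and 1463 to 560 and 444. Stages I and II share the −7 d library, so a low count there enters both with opposite signs. A coefficient of variation of 0.2 between libraries, each a pool of 6 cows, was also assumed in edgeR. THBS4 then kept its call in stages I and II and THBS1 in stage II, and no other thrombospondin call was kept. At an assumed 0.4 no thrombospondin was called in any comparison.

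Because the 4 genes were counted in the same libraries, the fold of one can be divided by the fold of another, which takes out the scaling. In stage I, 4 of the 6 pairs had an exact conditional 95% interval that excluded 1. The fold of THBS1 was 2.83 times that of THBS2 (1.40 to 6.35) and 10.8 times that of THBS4 (2.77 to 93.2). The fold of THBS3 was 14.3 times that of THBS4 (2.58 to 150), and the fold of THBS2 was 0.260 times that of THBS3 (0.0772 to 0.855). Each of THBS2 and THBS4 thus had a lower fold than each of THBS1 and THBS3. The ratios of THBS1 to THBS3, 0.723 (0.289 to 1.87), and of THBS2 to THBS4, 3.78 (0.743 to 37.4), had intervals that included 1.

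In stage II only the 3 pairs with THBS4, of 6, had an interval that excluded 1. Its fold was 7.79 times that of THBS1 (2.06 to 66.0), 8.92 times that of THBS2 (1.77 to 87.8) and 6.68 times that of THBS3 (1.34 to 65.3), all resting on its 2 tags at −7 d. The folds of THBS1, THBS2 and THBS3 could not be ordered at this depth. Their pairwise ratios were 1.16 (0.512 to 2.41) for THBS1 to THBS2, 0.868 (0.388 to 1.75) for THBS1 to THBS3 and 0.747 (0.251 to 2.22) for THBS2 to THBS3.

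Over the whole interval, which leaves out the −7 d library, 4 of 6 pairs had an interval that excluded 1. THBS2 had a smaller fold than each of the others. The fold of THBS1 was 3.30 times (2.10 to 5.23) and that of THBS4 2.36 times (1.28 to 4.40) the fold of THBS2, which was 0.192 times that of THBS3 (0.0834 to 0.419). The fold of THBS3 was also 2.21 times that of THBS4 (1.03 to 4.99). No adjustment was made over the 6 pairs of each comparison, and the intervals hold for these libraries.

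**Figure D3:**
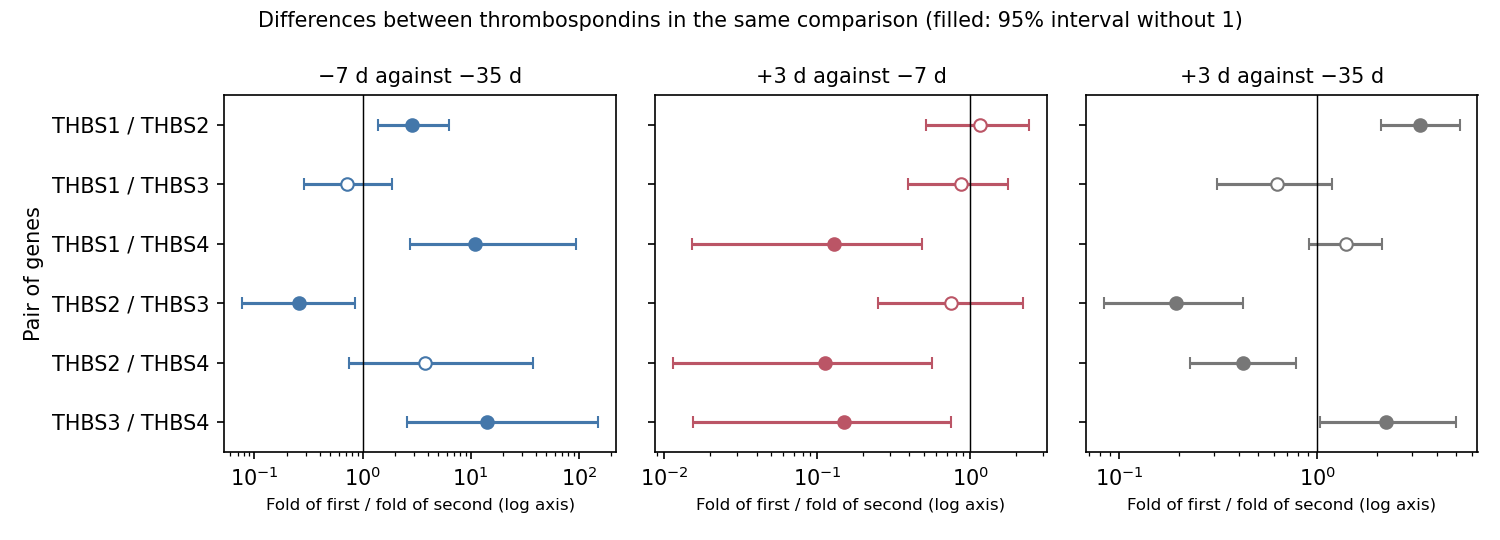
Ratio of the fold of one thrombospondin to that of another in each of the 3 comparisons, on a log axis, with exact conditional 95% intervals. Intervals clear of 1 were 4 of 6 in stage I, 3 of 6 in stage II and 4 of 6 over the whole interval.

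Summed over the family, thrombospondin tags numbered 664, 334 and 1539, or 112, 59.7 and 263 TPM. THBS1 accounted for 84.5% (Wilson interval 81.5 to 87.0), 93.4% (90.2 to 95.6) and 89.7% (88.1 to 91.2) of them. The share of THBS2 was 7.68% (5.89 to 9.96), 2.99% (1.63 to 5.42) and 2.47% (1.80 to 3.37), lower in both later libraries. THBS4 held 5.87% (4.33 to 7.93), 0.599% (0.164 to 2.16) and 4.48% (3.56 to 5.64), with the low share at −7 d. THBS3 held 1.96% (1.15 to 3.32), 2.99% (1.63 to 5.42) and 3.31% (2.53 to 4.33), with overlapping intervals throughout. These are shares of tags and not of protein or transcript.

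Markers of cell types that could carry thrombospondins were counted in the same libraries. The smooth muscle and myoepithelium list, of which 11 of 12 symbols were listed, summed to 914.72, 568.91 and 1338.74 TPM, so it was lowest at −7 d and highest at +3 d, as THBS1 was. Its most abundant gene, TAGLN, an actin-binding protein of smooth muscle, had 218.62, 109.42 and 291.83 TPM. Of this list, 7 genes were called higher in stage II and none lower, beside 3.12% and 10.4% of all genes tested. Among the 7 were CNN1, DES and ACTG2. The shares of all genes in stage I were 6.45% lower and 2.62% higher. In stage I ACTA2, LMOD1 and KRT5 were called lower and ACTG2 higher, and with TMM scaling the stage I call of ACTA2 was lost and it was called higher in stage II, at 1.25. With scaling by the tags on listed genes TAGLN was called lower in stage I, at −1.03, and 5 genes of the list higher in stage II. TP63, of myoepithelial nuclei, was not listed.

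The fibroblast markers, 8 of 10 listed, summed to 7660.26, 5755.87 and 8732.56 TPM, led by COL1A1 with 2372.34, 2071.79 and 3261.99 TPM. PDGFRA and PDGFRB were not listed, and 1 gene was at 0 at −7 d and 1 at +3 d. Of the fibroblast markers, COL1A2 and FAP were called higher in stage II, and no fibroblast marker was called in stage I. Over all genes tested, 3.12% were called higher in stage II, and 6.45% lower and 2.62% higher in stage I. The count of fibroblast markers called higher in stage II was 3 with TMM scaling. It was 1 with scaling by the tags on listed genes, where COL1A2 was lost. The macrophage markers, with 11 entries for 14 symbols, summed to 352.03, 265.5 and 483.42 TPM, led by C1QB with 104.83, 99.23 and 196.38 TPM. At −7 d 2 entries were at 0, and at +3 d 1. CD68, CD163, CSF1R and VSIG4 were called lower in stage I, and CD14, CD163, CSF1R and VSIG4 higher in stage II. With TMM scaling C1QB was also called higher in stage II, at 1.29, and with scaling by the tags on listed genes the stage II calls of CSF1R and VSIG4 were lost. Adipocyte markers, 9 of 10 listed, summed to 327.16, 224.37 and 490.62 TPM, led by FABP4 with 152.85, 91.36 and 244.28 TPM. In stage I 5 adipocyte genes lay above 0 and 4 below, with a median log2 ratio of 0.071. CIDEA was called higher and PLIN1 and CFD lower, and both lower calls were lost with TMM scaling. On the deposited scale each of these 4 sums was lowest at −7 d and highest at +3 d, also without the leading gene of each list, a sum added after the data were seen. With scaling by the tags on listed genes the +3 d sum fell under that of −35 d for fibroblasts, at a log2 ratio of −0.20, or −0.34 without COL1A1, and for macrophages without C1QB, at −0.17. The part of these cells in the thrombospondin levels was not tested.

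Endothelial markers, 12 of 13 listed, summed to 284.4, 297.86 and 399.6 TPM, led by ROBO4 with 70.17, 132.12 and 142.49 TPM, and VWF was not listed. Without ROBO4 the sum was 214.23, 165.74 and 257.11 TPM, lowest at −7 d, and highest at +3 d except with scaling by the tags on listed genes, where the log2 ratio of +3 d to −35 d was −0.12. In stage I 8 of 11 endothelial genes averaging 1 TPM or more lay below 0, with a median log2 ratio of −0.37. No endothelial marker was called in stage I on the deposited scale, and ROBO4 was called higher with TMM scaling, at 1.10. CLDN5 and ERG were called higher in stage II, beside 3.12% of all genes tested. The call of CLDN5 was lost with scaling by the tags on listed genes, at 0.80. Lymphocyte markers, 13 of 15 listed, summed to 285.4, 176.3 and 183.05 TPM, led by CD3E with 48.53, 44.34 and 36.44 TPM. With scaling by the tags on listed genes the log2 ratio of their +3 d to −7 d sums turned from 0.054 to −0.30. In stage I 3 lymphocyte markers were called lower and none higher, beside 6.45% and 2.62% of all genes tested. Luminal epithelial markers, 11 of 14 listed, summed to 4947.06, 3261.26 and 2655.92 TPM. With TMM scaling the log2 ratio of their +3 d to −7 d sums turned from −0.30 to 0.012. In stage I 3 luminal markers were called lower and none higher, beside 6.45% and 2.62% of all genes tested, and with TMM 1 was lower. In stage II MUC1 was called higher and 1 other lower, beside 3.12% and 10.4% of all genes tested. With TMM the lower call was lost. Neutrophil markers, 7 of 11 listed, summed to 2682.6, 1687.75 and 1162.02 TPM. LTF, lactoferrin, which mammary epithelium also makes, led both of these lists with 2650.3, 1666.12 and 1135.85 TPM. Without LTF the neutrophil sum was 32.3, 21.63 and 26.17 TPM and the luminal sum 2296.76, 1595.14 and 1520.07 TPM, and the order of +3 d and −7 d in each turned with the scaling.

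Platelets store THBS1, and 9 of the 11 platelet and megakaryocyte markers, including PF4, PPBP, GP1BA and GP9, were listed in no library. The other two were ITGA2B with 32, 37 and 28 tags, and F13A1, also made by macrophages, with 42, 40 and 338 tags. F13A1 was called higher in stage II, with a log2 ratio of 3.02. Skeletal muscle and tendon markers, 7 of 13 listed, summed to 1.53, 1.44 and 2.74 TPM, led by TNNT3 with 0.51, 0.72 and 0.86 TPM, and the tendon genes TNMD and SCX were not listed. Erythrocyte markers, 4 of 10 listed, summed to 2.37, 1.79 and 4.1 TPM, led by AHSP with 10, 10 and 21 tags.

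**Figure D4:**
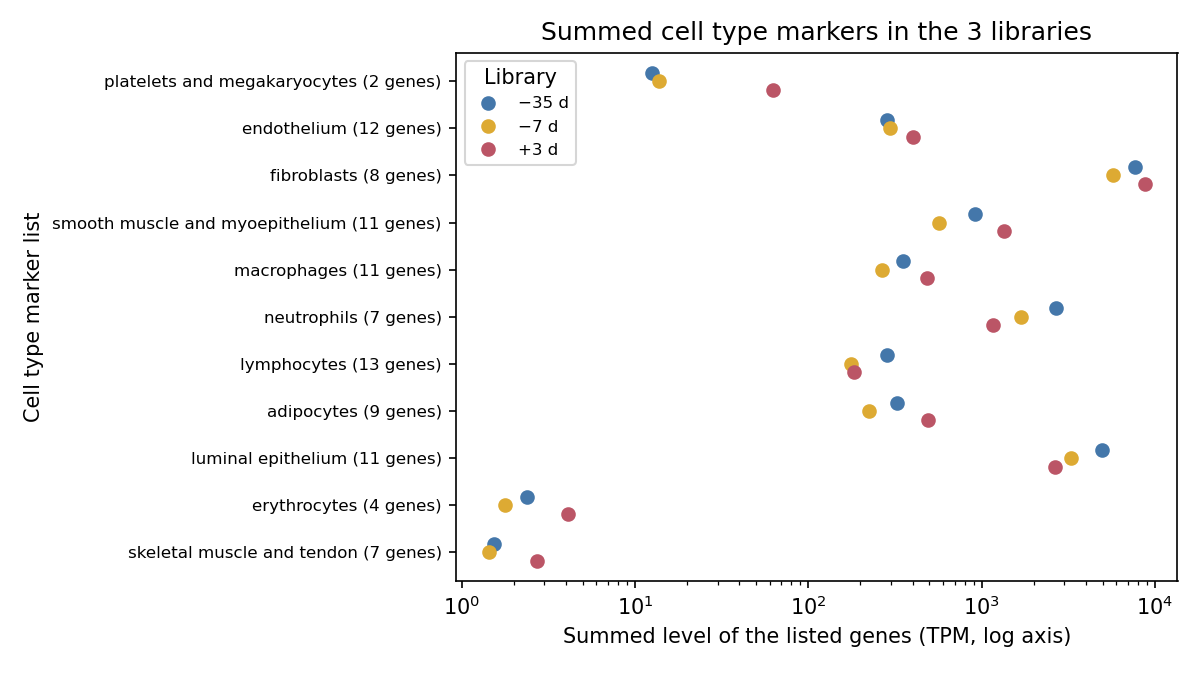
Summed TPM of each marker list in the 3 libraries, on a log axis, with 1 point per library. Smooth muscle and myoepithelium, fibroblast, macrophage and adipocyte sums were lowest at −7 d and highest at +3 d, except that the fibroblast sum was higher at −35 d than at +3 d with scaling by the tags on listed genes, and the skeletal muscle and tendon sum stayed under 3 TPM.

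Genes of 8 lists around the thrombospondins were read next, and a gene may stand in more than one list. Of 25 receptors and partners of thrombospondins, 18 were listed. CD36, the scavenger receptor that binds the type 1 repeats of THBS1 and THBS2, had 928, 432 and 1592 tags, or 156.9, 77.24 and 272.33 TPM. It was lowest at −7 d and highest at +3 d. CD36 was downregulated in stage I, with a log2 ratio of −1.02 and an Audic-Claverie FDR of 1.19e-34. This call lay close to the 2-fold threshold and was lost with TMM scaling. It was upregulated in stage II, with a log2 ratio of 1.82 and an Audic-Claverie FDR of 1.18e-142.

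CD47, the receptor for the C-terminal part of THBS1, had 950, 945 and 793 tags and was called in no comparison, with log2 ratios of 0.073, −0.32 and −0.24. The integrin chains ITGB1 and ITGB2 were called lower in stage I. ITGB1 had 232, 82 and 93 tags, and ITGB2 had 238, 83 and 130 tags. CALR, calreticulin, a chaperone that also acts as a surface co-receptor of THBS1, had 5151, 6453 and 2657 tags and was called lower in stage II. On the deposited scale, of 16 receptors tested in stage II, CALR was the 1 called lower and CD36 the 1 called higher. Of all genes tested, 10.4% were called lower and 3.12% higher in stage II, and 6.45% lower and 2.62% higher in stage I. With TMM scaling SDC2, a syndecan, was also called higher, at 1.02, and with scaling by the tags on listed genes LRP8, a lipoprotein receptor, was also called lower, at −2.07. The median log2 ratio of the 15 receptors averaging 1 TPM or more was −0.36 in stage I. In stage II it was 0.098, and −0.26 when libraries were scaled by the tags on listed genes.

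Among other proteins with type 1 repeats and COMP, 19 of 40 symbols were listed. In stage I, 3 were called lower and 1 higher, beside 6.45% and 2.62% of all genes tested, with a median log2 ratio of −0.60. In stage II, 5 were called higher and 1 lower, beside 3.12% and 10.4% of all genes tested, with a median of 0.77. SPON2, a secreted protein of innate immunity, had 346, 64 and 226 tags and was called lower and then higher, with log2 ratios of −2.35 and 1.76. ADAMTSL4, which associates with fibrillin fibres, had 406, 179 and 427 tags, and CYR61, a matricellular growth regulator, had 196, 85 and 275. Both were called lower and then higher, though with TMM scaling SPON2 was the 1 of these still called in stage I.

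NOV, of the same CCN family as CYR61, had 164, 134 and 765 tags. It was not called in stage I, with a log2 ratio of −0.21, and was called higher in stage II, at 2.45. ADAMTS2, which removes the N-terminal propeptide of procollagen, had 103, 63 and 167 tags and was called higher in stage II, at 1.34. RSPO1, an enhancer of Wnt signalling, ran the other way with 29 tags at −35 d, 130 at −7 d and was listed at 0 at +3 d. It is named here after its values were seen, as the 1 member called in the opposite direction in both comparisons.

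Of 36 matricellular and matrix glycoproteins 25 were listed. In stage I, 5 were called lower and none higher, beside 6.45% and 2.62% of all genes tested. In stage II, 9 were called higher and none lower, beside 3.12% and 10.4%. The list medians were −0.66 and 0.95. With TMM scaling 4 of the list were called lower in stage I and 15 higher in stage II. SPARC, which binds collagen, had 10598, 10787 and 24615 tags and was called higher only in stage II and over the whole interval, at log2 ratios of 1.13 and 1.23, and with scaling by the tags on listed genes in neither. ELN, elastin, had 895, 443 and 1606 tags, and EFEMP1, a fibulin, had 616, 402 and 1256. Both were called higher in stage II, at 1.79 and 1.58.

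SPP1, osteopontin, had 33341, 1864 and 3065 tags and was called lower in stage I, at −4.08, but was not called in stage II, at 0.65. FBLN1, another fibulin, had 1278, 533 and 1106 tags with log2 ratios of −1.18, called, and 0.99, not called. With TMM scaling these became −0.99, not called, and 1.30, called. Of 27 collagens and small leucine-rich proteoglycans 17 were listed. COL6A2, BGN and OGN were called lower in stage I, and 6 genes higher and OMD lower in stage II. Of all genes tested, 6.45% were called lower in stage I, and 3.12% higher and 10.4% lower in stage II. COL1A2, a chain of type I collagen, had 6667, 3617 and 9442 tags, with a log2 ratio of 1.32 in the second comparison. COL6A1, a chain of type VI collagen, had 3231, 1670 and 3799 tags, with 1.12. With TMM scaling OGN was no longer called in stage I, COL8A1 was called higher there, at 1.12, and OMD was no longer called in stage II, with an Audic-Claverie FDR of 0.00226. When libraries were scaled by the tags on listed genes 1 gene of this list was called higher in stage II.

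Of 19 ligands, latency proteins, receptors and transducers of TGF-beta, 12 were listed, and TGFB1 was not. ITGB6, a chain of the integrin that activates latent TGF-beta, was called lower in stage I and higher in stage II, with 15, 0 and 18 tags. LTBP2, a latent TGF-beta binding protein family member, had 19, 4 and 39 tags and was called higher in stage II, at a log2 ratio of 3.22 and an Audic-Claverie FDR of 2.34e-07. Of 15 genes known as targets of TGF-beta, 13 were listed. ACTA2, smooth muscle actin, was called lower in stage I with 1095, 467 and 937 tags, a call that was lost with TMM scaling, where it was called higher in stage II. COL1A2, TIMP1 and LTBP2 were called higher in stage II. With TMM scaling 7 target genes were called higher there, and with scaling by the tags on listed genes 2. Of all genes tested, 6.45% were called lower in stage I and 3.12% higher in stage II on the deposited scale. The medians of the target genes were −0.73 and 0.81, beside −0.19 and −0.31 for all genes.

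Matrix proteases and inhibitors had 17 of 24 symbols listed. In stage I 7 were called lower and none higher, beside 6.45% and 2.62% of all genes tested, with a median log2 ratio of −0.97. MMP2, gelatinase A, a matrix-cleaving enzyme that THBS2 binds, had 261, 76 and 189 tags, with log2 ratios of −1.70 and then 1.25, both called. PLAT, tissue plasminogen activator, had 433, 170 and 259 tags, and MMP19 had 114, 45 and 84. Both were called lower in stage I and not called in stage II, where MMP19 was called higher with TMM scaling, at 1.14. TIMP1, an inhibitor of matrix proteases, had 312, 150 and 458 tags and was called higher in stage II, at 1.55, as were MMP2 and MMP23B. With scaling by the tags on listed genes TIMP1 was also called lower in stage I, at −1.01. In stage II 3 of this list were called higher and none lower, beside 3.12% and 10.4% of all genes tested. With TMM scaling 7 were called higher and none lower there. When libraries were scaled by the tags on listed genes, 1 protease or inhibitor was called higher and 2 lower in stage II.

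Vascular growth factors and receptors had 21 of 28 symbols listed. VEGFB, PGF and EPAS1 were called lower in stage I, and FIGF, the lymphatic growth factor VEGF-D, was the 1 called higher in stage II. Of all genes tested, 6.45% were called lower in stage I and 3.12% higher in stage II. VEGFB, whose call was lost with TMM scaling, had 113, 48 and 86 tags, PGF 57, 18 and 31, and FIGF 53, 53 and 124. EPAS1, the hypoxia-inducible factor 2 alpha of endothelium, had 35, 2 and 18 tags. Its log2 ratio in stage II was 3.11, with an Audic-Claverie FDR of 0.00113, just outside the threshold, and it was called with TMM scaling, with an Audic-Claverie FDR of 0.000235, as was VEGFB, at 1.09. The medians of this list were −0.32 and 0.62. With TMM scaling 6 of its members were called higher in stage II, and with scaling by the tags on listed genes none was called higher and 2 lower.

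Scaling by the tags on listed genes moved every stage II log2 ratio by −0.36, away from the side to which TMM moved it. The stage II calls of ADAMTS2, ADAMTSL4, SPARC, COL1A2, COL6A1, COL6A2, BGN, FMOD, MMP2, MMP23B and FIGF were then lost. Those of CD36, NOV, SPON2, CYR61, ELN, EFEMP1, LTBP2 and TIMP1 were kept.

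**Figure D5:**
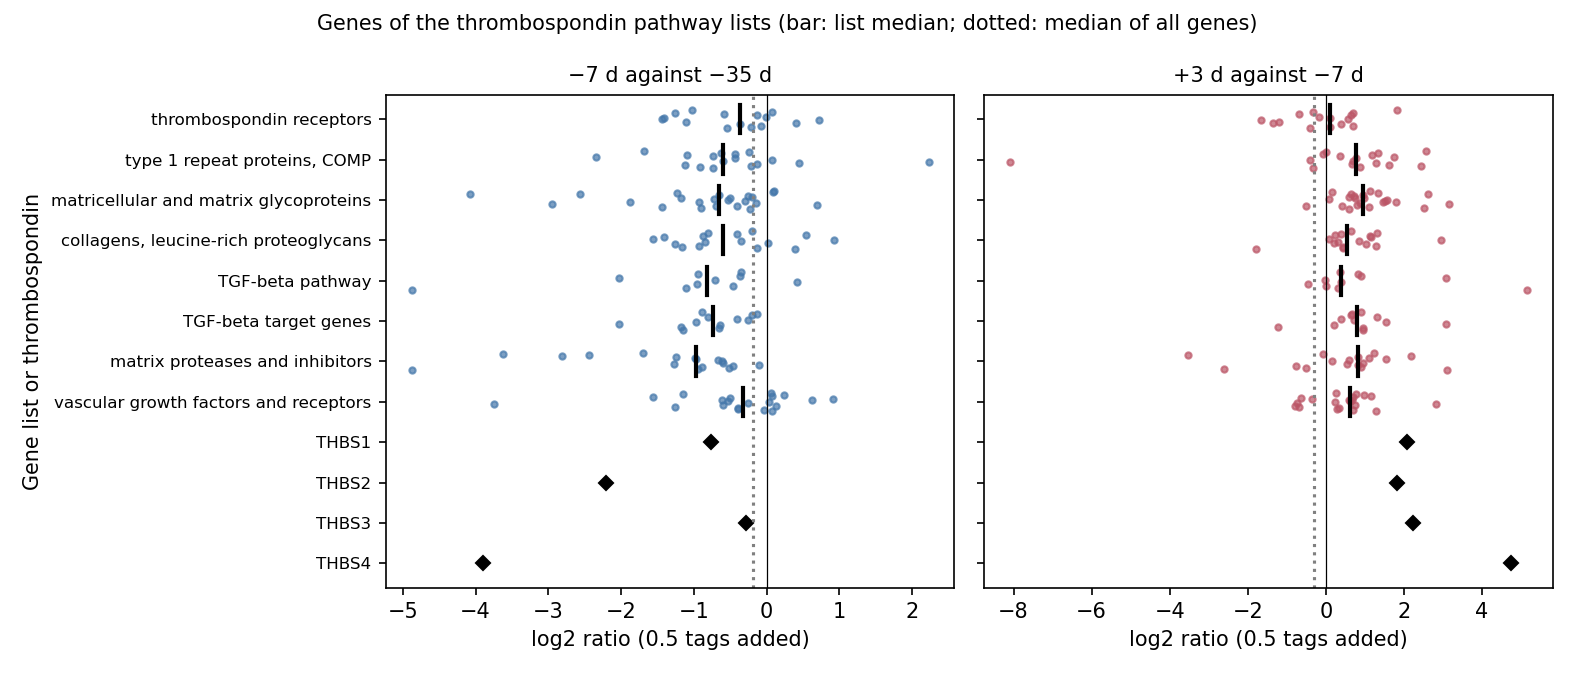
Log2 ratios, with 0.5 tags added, of the genes of each pathway list (points) with the list median (bar), the median of all genes (dotted line) and the 4 thrombospondins (diamonds), for stage I on the left and stage II on the right. All 8 list medians lay below 0 in stage I and above 0 in stage II on the deposited scale, and the receptor median in stage II turned to −0.26 when libraries were scaled by the tags on listed genes.

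Genes that neighbour the thrombospondin genes in the RefSeq annotation of assembly ARS-UCD2.0 were read for comparison. MUC1, a mucin of the apical surface of epithelium next to THBS3, had 276, 123 and 575 tags, or 46.67, 21.99 and 98.36 TPM. It was called lower in stage I, at a log2 ratio of −1.09 and an Audic-Claverie FDR of 8.75e-12, a call that was lost with TMM scaling. It was then called higher in stage II, at 2.16 and an Audic-Claverie FDR of 6.58e-65, where THBS3 had 2.29. The part of MUC1 tags in the THBS3 level was not tested. MTX1, on the other side of THBS3, had 31, 14 and 19 tags and was not called. SMOC2, next to THBS2, had 535, 287 and 421 tags and was not called, with log2 ratios of −0.82 and 0.49. CMYA5, next to THBS4, had 3, 5 and 0 tags. The other neighbours, RASGRP1, FSIP1, WDR27 and MTX3, were not listed, and of these FSIP1 overlaps THBS1 and MTX3 overlaps THBS4 in that annotation.

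The genes nearest to each thrombospondin in pattern were taken by the distance between their pairs of stage log2 ratios, over 3 libraries and 7569 genes. With so few libraries many genes lie close by, so these names describe the libraries only. For THBS1 they were HLX, MUSTN1 and CNN1, at distances of 0.105, 0.225 and 0.230. HLX had only 6, 3 and 14 tags. CNN1, the smooth muscle calponin, had 214, 139 and 596 tags. For THBS2 they were C6, AKNA and ART3, at 0.105, 0.106 and 0.112. Counts were low here too, with 30, 6 and 22 tags for C6, 11, 2 and 9 for AKNA, and 12, 2 and 8 for ART3. For THBS3 they were C28H10ORF10, NOV and LOC504773, at 0.144, 0.226 and 0.262. For THBS4 they were FABP7, CA4 and LOC100294978, at 0.307, 0.349 and 0.438, each listed at 0 at −7 d. When the search was kept to genes averaging 5 TPM or more, the 3 genes of THBS3 stayed, 2 of THBS1 stayed and none of THBS2 or THBS4 did. SPON2 was then nearest to THBS2, at 0.145, and MFAP4, a microfibril protein with 207, 25 and 237 tags, nearest to THBS4, at 1.85.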

How the data were processed

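Per the deposited tables, the authors counted clean tags per gene after Illumina sequencing, removing adaptors, tags with unknown bases or wrong length and single-copy tags. Tags were matched, with at most 1 mismatch, to CATG plus 17 bases of bovine transcripts (UMD 3.1), and tags of several genes were left out. The deposited TPM are these counts scaled to the clean tag total of the library. Tags on listed genes were 40.5%, 41.4% and 53.0% of clean tags at −35 d, −7 d and +3 d. The summary of the authors gives 8871, 8591 and 8582 genes with unambiguous tags and the tables list 8662, 8363 and 8359, so a gene that is not listed may have had tags. The deposited summary, which mixes counts and other values, was used for these totals only.

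The Audic-Claverie test (the smaller tail, doubled) was adjusted by Benjamini-Hochberg over all genes with a tag in either library, with 0 TPM set to 0.01 for ratios. Medians of lists used 0.5 added tags and members averaging 1 TPM or more. With no replicates, edgeR's quasi-likelihood test had no residual degrees of freedom. Genes named from each pathway list were the up to 5 of highest mean TPM among those called in either stage, plus CD36 and CD47, and others are named where a count was small. The members and lists were chosen with earlier results of these data known. Poisson, Wilson and exact conditional intervals are at 95%. Scripts ran in Python 3.11.15 and R 4.3.3 (edgeR 4.0.16, DESeq2 1.42.0) and were tested on simulated data. No sequence was used.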

Additional observations from a re-analysis of the deposited data

How the results depend on the processing

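With 1 library per time point, spread between cows could not be estimated, and genes with under about 50 tags, as THBS2, THBS3 and THBS4 were in 1 or more libraries, have wide intervals. Of 117 alternative values for the thrombospondin ratios, 96 kept their direction and their side of the threshold. Of the rest, 16 lost the call, 3 gained it and 2 changed sign. The 96 include ratios that were called neither before nor after. Settings that changed only the test, the fold threshold or the genes kept left the ratio itself unchanged, so they could not turn its direction. Causes were not tested beyond each setting's construction. THBS3 gave no value at a mean of at least 5 TPM, being below it.

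Scaling mattered most over the whole interval. The THBS2 log2 ratio became 0.090 with TMM and 0.11 with DESeq2 size factors. THBS4 became called at 1.34 with TMM, 1.36 with DESeq2 size factors and 1.20 with totals that leave out genes over 1%. With totals of tags on listed genes THBS1 was 0.93 there, under the 2-fold threshold, and THBS2 was 1.51 (Audic-Claverie FDR 0.00408) in stage II. The 1672 genes called over the whole interval became 1004 with TMM, 992 with DESeq2 size factors, 1039 without genes over 1% and 3019 with listed-gene totals, which also gave 2053 instead of 1189 in stage II. A 3-fold threshold left 317, 440 and 659 genes in the 3 comparisons, and THBS1 at 1.32 was then not called over the whole interval.

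In an exact test in edgeR, a coefficient of variation between the pooled libraries was assumed, which is not that between single animals. At 0.2 it called 54, 160 and 156 genes, and at 0.4 it called 3, 8 and 14, against 813, 1189 and 1672. At 0.2, in this test, calls were kept for THBS4 in stage I (edgeR FDR 0.000408) and for THBS1 (edgeR FDR 0.000126) and THBS4 (edgeR FDR 1.86e-07) in stage II. Lost at 0.2 were THBS2 in stage I (log2 ratio −2.27, edgeR FDR 0.0147), THBS2 (1.86, edgeR FDR 0.0608) and THBS3 (2.29, edgeR FDR 0.00847) in stage II, and THBS1 (1.32, edgeR FDR 0.0238) and THBS3 (1.99, edgeR FDR 0.0181) over the whole interval. At 0.4 no thrombospondin was called: edgeR FDR was 1 for THBS2 (−2.27) and 0.370 for THBS4 (−4.20) in stage I, 0.727 for THBS1 (2.08), 1 for THBS2 (1.86), 0.799 for THBS3 (2.29) and 0.0240 for THBS4 (5.04) in stage II, and 0.864 for THBS1 (1.32) and 0.782 for THBS3 (1.99) over the whole interval.

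No paired analysis was possible because each time point had 1 library.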
